A study of Schizosaccharomyces pombe with 10 samples.

Results

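Transcripts of 9 subunits of the proteasome regulatory particle were followed through 10 polyA RNA-seq libraries of the fission yeast Schizosaccharomyces pombe. The 9 genes were rpt1 to rpt6, rpn1, rpn2 and rpn11, taken by their systematic names from the 7017 genes of the count table, and all 9 passed every filter on low counts. Cells grew exponentially in minimal medium and were collected after 15 min in 1 mM H2O2 or untreated, with 1 library for each strain and treatment. The strains are given by their labels. 10D is a sty1 deletion carrying HA-Atf1.10D, the phosphomimicking form of the bZIP transcription factor Atf1. 10M is a sty1 deletion carrying HA-Atf1.10M, the form that cannot be phosphorylated. HA is a sty1 deletion with HA-tagged Atf1, STY a sty1 deletion with no tagged Atf1 named, and WT the wild type. Sty1 is the stress-activated MAP kinase that phosphorylates Atf1, and the series asked how transcription with and without H2O2 depends on these forms of Atf1. The labels name no repeat culture or clone of any strain, so differences between 2 libraries have no replicate check.

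The regulatory particle caps the barrel-shaped core particle of the proteasome. It binds proteins tagged with ubiquitin chains, removes the chains, unfolds the protein and feeds it into the core, where it is cut. The Rpt subunits are ATPases of the AAA family that form the ring doing the unfolding, the large scaffolds Rpn1 and Rpn2 sit beside that ring in the base, and Rpn11 is the metalloprotease of the lid that cuts off the ubiquitin chain. Oxidised and misfolded proteins are among the substrates of this machine, and in budding yeast its genes share an activator, Rpn4.

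Library totals ran from 9178795 to 26503471 counts, with 10D and 10M the deepest, and the TMM scaling factors from 0.919 to 1.11. The smallest count of any of the 9 genes was 1112 reads. The sty1 transcript stood at 101 to 129.9 CPM (TMM-scaled reads relative to a common library size) in the libraries labelled 10D, 10M and HA, and at 8.92 and 9.11 CPM in the STY libraries, against 266.7 to 305 CPM in WT. Libraries labelled 10D, 10M and HA therefore held sty1 reads although their labels name a sty1 deletion, and they are called by their labels throughout. In bulk cultures, a difference in every cell and a larger one in some cells cannot be told apart, and strain and any batch that follows strain cannot be told apart here.

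In untreated cells the 9 transcripts had narrow ranges over strains. Per kilobase of coding sequence, the median untreated level over the 5 strains was 262 CPM per kb for rpn11, 239 for rpt4, 233 for rpt2, 232 for rpt6, 209 for rpt3, 183 for rpt5, 159 for rpt1 and 119 for both rpn2 and rpn1. Each neighbouring pair from rpn11 down to rpt1 overlapped in its range over strains, so that order is not resolved step by step. The range of rpt1, 136 to 175 CPM per kb, lay above those of rpn2 and rpn1, which together spanned 106 to 134 CPM per kb. The scaffold genes were thus the lowest per kilobase of coding sequence in untreated cells. Coding bases were 2676 of the 2982 in the annotated rpn1 span, 1317 of 1758 for rpt1 and 927 of 1662 for rpn11. Levels per transcript length were not computed, and the order may differ by that measure. The highest untreated library exceeded the lowest by a median of 1.23-fold over the 9 genes, from 1.08-fold for rpt4 to 1.54-fold for rpt6, and the median over the 4983 genes averaging 10 CPM or more was 1.35-fold. After H2O2 the 9 genes had a median spread of 1.65-fold over strains, from 1.18-fold for rpn1 to 2.39-fold for rpn11, beside 1.90-fold over all those genes.

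**Figure D1:**
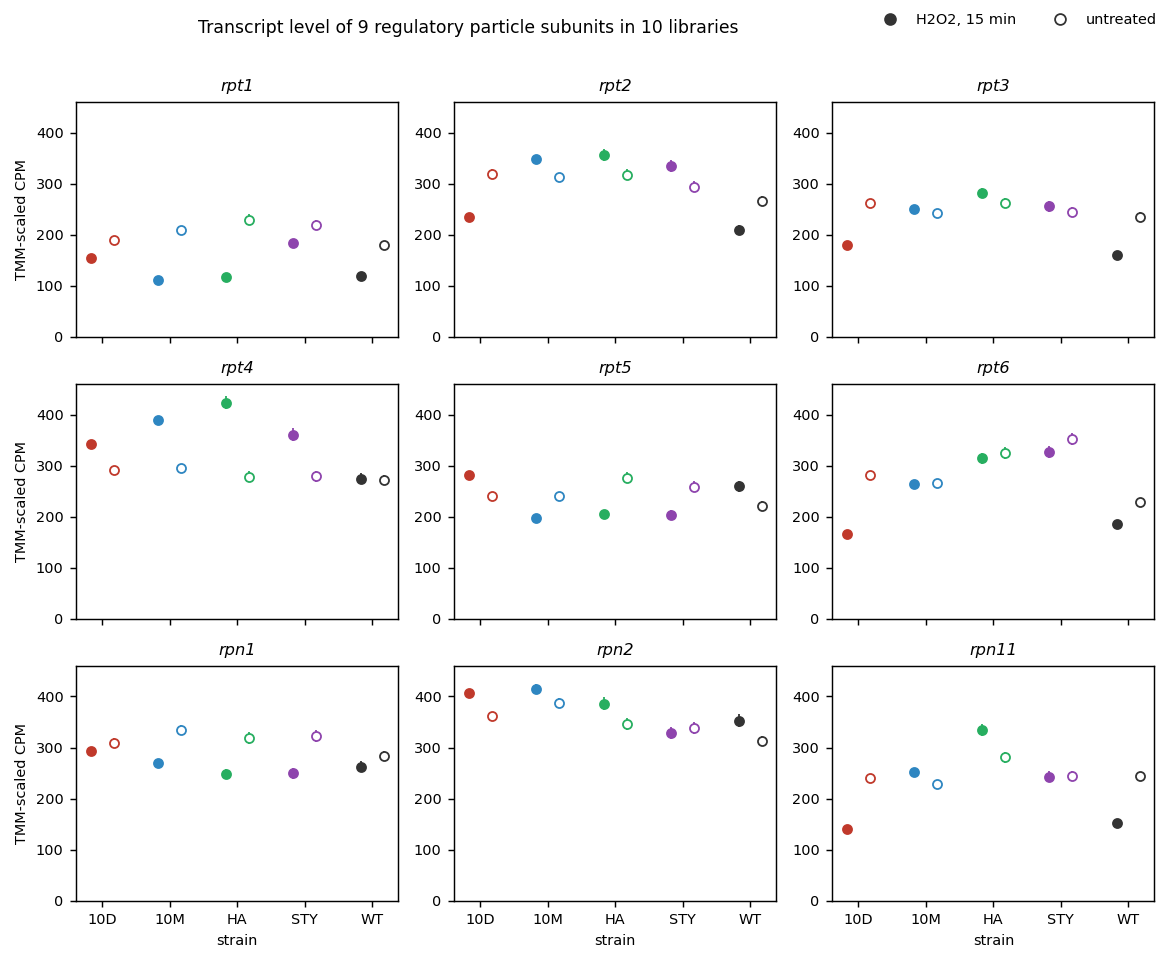
TMM-scaled CPM (y axis, linear from 0) of each regulatory particle gene in the 10 libraries, by strain (x axis), with filled points for H2O2 and open points for untreated cells; bars are 95% exact intervals for counting error and are mostly smaller than the points. For rpt2, rpt3, rpt6 and rpn11 the filled 10D and WT points lie below the other 8 points, whereas for rpt5 the filled 10D and WT points lie above the filled points of 10M, HA and STY.

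The ATPase genes did not share 1 pattern, and rpt1 was lower after H2O2 in every strain. The rpt1 level (SPBC16C6.07c) was 154 CPM in treated 10D, 111 in treated 10M, 117 in treated HA, 183 in treated STY and 119 in treated WT, against 189 CPM in untreated 10D, 209.7 in untreated 10M, 229.8 in untreated HA, 219 in untreated STY and 179.6 in untreated WT. Treated STY was the only treated library inside the untreated range, just above untreated WT. The log2 ratio of treated over untreated was largest in size in HA, at -0.98 (95% interval for counting error -1.08 to -0.87), and in 10M, at -0.92 (-1.0 to -0.84), and smaller in WT (-0.60), 10D (-0.29) and STY (-0.26).

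The rpt4 transcript (SPCC1682.16) was higher after H2O2 in 4 of the 5 strains. It was at 343 CPM in treated 10D, 389 in treated 10M, 423 in treated HA, 361 in treated STY and 274 in treated WT, against 290.5 CPM in untreated 10D, 294 in untreated 10M, 278 in untreated HA, 279 in untreated STY and 272 in untreated WT. Treated 10D, 10M, HA and STY lay above every untreated library, whereas treated WT lay inside the untreated range. The log2 ratios were 0.24 in 10D, 0.40 in 10M, 0.60 in HA, 0.37 in STY and 0.01 in WT, and the WT interval (-0.06 to 0.09) held 0. Rpt4 and Rpt5 are neighbours in the ATPase ring, as known from budding yeast and mammals.

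For rpt5 the strains parted into opposite directions. The rpt5 level (SPAC3A11.12c) was 282 CPM in treated 10D, 197 in treated 10M, 205 in treated HA, 203 in treated STY and 259 in treated WT, against 241 CPM in untreated 10D, 241 in untreated 10M, 276 in untreated HA, 259 in untreated STY and 222 in untreated WT. Treated 10M, HA and STY lay below every untreated library, treated WT lay inside the untreated range, and treated 10D just above it. The log2 ratio was 0.22 in both 10D and WT, against -0.29 in 10M, -0.43 in HA and -0.35 in STY. An annotated antisense transcript, SPNCRNA.908, spans all 2087 bases of rpt5, and since the strand setting of the counting is not given in the sources used here, reads of the pair cannot be told apart by strand; that transcript had 10 to 74 counts per library. The other subunit genes except rpt1 overlap annotated antisense transcripts by 239 to 1333 bases, which are not analysed here.

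The other ATPase genes, rpt2, rpt3 and rpt6, were lowest in treated 10D and treated WT. For rpt2 (SPBC4.07c) the level was 234 CPM in treated 10D, 348 in treated 10M, 356 in treated HA, 334 in treated STY and 209.9 in treated WT, against 319.7 CPM in untreated 10D, 313 in untreated 10M, 318 in untreated HA, 294 in untreated STY and 266 in untreated WT. Treated 10D and treated WT were below all 5 untreated libraries, and treated 10M, HA and STY were above all 5. The rpt3 level (SPCC576.10c) was 180.2 CPM in treated 10D, 251 in treated 10M, 282 in treated HA, 256 in treated STY and 160.2 in treated WT, against 262 CPM in untreated 10D, 243 in untreated 10M, 262 in untreated HA, 244 in untreated STY and 235 in untreated WT. Treated 10D and WT were again below every untreated library, with log2 ratios of -0.54 and -0.55, while 10M, HA and STY had ratios of 0.05, 0.11 and 0.07. The rpt6 level (SPBC23G7.12c) was 166 CPM in treated 10D, 265 in treated 10M, 314 in treated HA, 327 in treated STY and 185 in treated WT, against 281 CPM in untreated 10D, 267 in untreated 10M, 324 in untreated HA, 352 in untreated STY and 228 in untreated WT. Its log2 ratio was -0.76 in 10D and -0.30 in WT, and lay between -0.11 and -0.01 in 10M, HA and STY. Untreated WT already had the lowest untreated rpt6 level.

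The lid deubiquitinase gene rpn11 (SPAC31G5.13), known in fission yeast also as pad1, had the widest range of the 9 genes after H2O2. It stood at 139.8 CPM in treated 10D, 252 in treated 10M, 334 in treated HA, 243 in treated STY and 151 in treated WT, against 241 CPM in untreated 10D, 229 in untreated 10M, 281 in untreated HA, 244 in untreated STY and 243 in untreated WT. Treated 10D and WT fell outside the untreated range on the low side, treated HA outside it on the high side, and treated 10M and STY inside it. The log2 ratios were -0.79 in 10D (-0.85 to -0.72) and -0.68 in WT (-0.78 to -0.59), against 0.14 in 10M, 0.25 in HA and -0.01 in STY. Its annotated transcript shares 39 bases with SPAC31G5.21 on the same strand.

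The scaffold genes rpn1 and rpn2 varied least over the treated libraries. The rpn1 transcript (SPBP19A11.03c) was at 293 CPM in treated 10D, 269.9 in treated 10M, 248 in treated HA, 249 in treated STY and 262 in treated WT, against 309.8 CPM in untreated 10D, 335 in untreated 10M, 318 in untreated HA, 322 in untreated STY and 283 in untreated WT. Its ratio was below 0 in all 5 strains, near -0.1 in 10D (-0.08) and WT (-0.11), against -0.31 to -0.37 in 10M, HA and STY. The rpn2 transcript (SPBC17D11.07c) was at 408 CPM in treated 10D, 414 in treated 10M, 386 in treated HA, 328 in treated STY and 353 in treated WT, against 361 CPM in untreated 10D, 388 in untreated 10M, 345 in untreated HA, 339 in untreated STY and 313 in untreated WT. Its ratios ran from 0.09 to 0.17 in 10D, 10M, HA and WT, and the STY interval around -0.05 held 0. With counts scaled by library totals alone, the rpn2 ratios were 0.13 in 10D, 0.05 in 10M, 0.01 in HA, -0.20 in STY and 0.01 in WT.

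**Figure D2:**
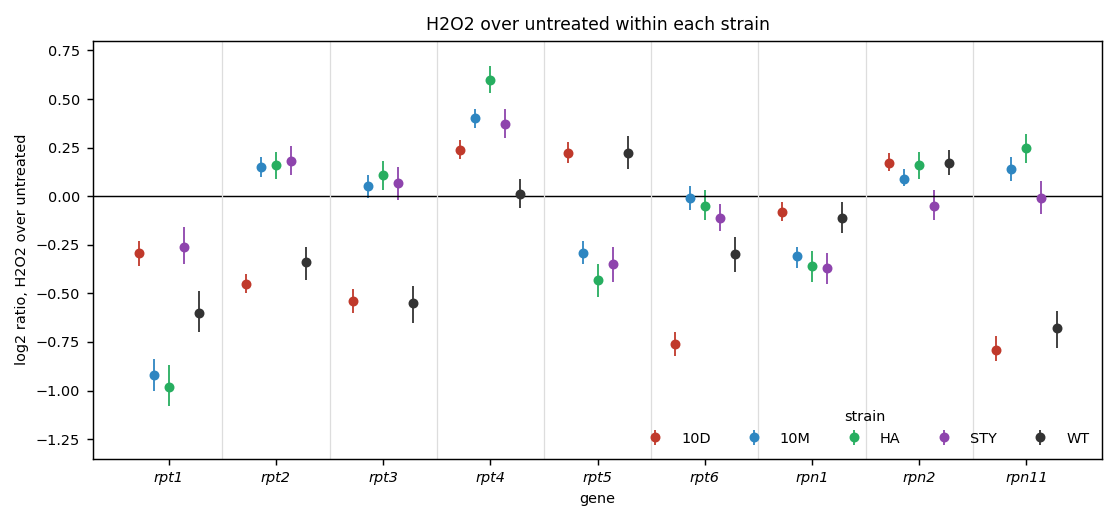
Log2 ratio of H2O2 over untreated TMM-scaled CPM (y axis) for each gene (x axis) in each strain, with 1 library per treatment; bars are 95% exact binomial intervals for counting error only. Points of rpt1 lie below 0 in all 5 strains, those of rpt2, rpt3, rpt6 and rpn11 are lowest in 10D and WT, and those of rpt5 are above 0 in 10D and WT and below 0 in the other strains.

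Few of the genes reached a 1.5-fold difference within a strain. In 10D rpt6 and rpn11 were at least 1.5-fold lower after H2O2, among 17.7% of all genes at that fold. In WT rpt1 and rpn11 were, among 17.2%. In 10M rpt1 alone was, among 12.6%. In HA rpt1 was at least 1.5-fold lower, among 19.8%, and rpt4 at least 1.5-fold higher, among 9.15%. In STY none of the 9 genes reached 1.5-fold, where 20.2% of all genes did in either direction. The median log2 ratio of the 9 genes was -0.29 in 10D, 0.05 in 10M, 0.11 in HA, -0.05 in STY and -0.30 in WT, and the median of all genes was between -0.09 and -0.03. Under scaling by total counts the median of all genes was -0.24 in HA, -0.19 in STY and -0.23 in WT, and the median of the 9 genes was -0.04 in HA, -0.20 in STY and -0.47 in WT, so their HA median changed sign. For rpt2 the ratios were then 0.01 in HA and 0.03 in STY, and for rpt5 0.06 in WT.

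The ratio of the reads of 2 genes in the same library does not depend on scaling. The pairs given here were chosen after the values were seen and are a description. The ratio of rpt4 to rpt1 counts was 2.22 in treated 10D, 3.50 in treated 10M, 3.63 in treated HA, 1.97 in treated STY and 2.31 in treated WT, against 1.54 in untreated 10D, 1.40 in untreated 10M, 1.21 in untreated HA, 1.27 in untreated STY and 1.51 in untreated WT. All 5 treated libraries lay above all 5 untreated ones. The ratio of rpn11 to rpt5 counts was 0.496 in treated 10D, 1.28 in treated 10M, 1.63 in treated HA, 1.19 in treated STY and 0.584 in treated WT, against 0.999 in untreated 10D, 0.951 in untreated 10M, 1.02 in untreated HA, 0.944 in untreated STY and 1.10 in untreated WT. Untreated libraries kept these transcripts within a narrow ratio, and the treated ones stood on both sides of it, 10D and WT below and 10M, HA and STY above.

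**Figure D3:**
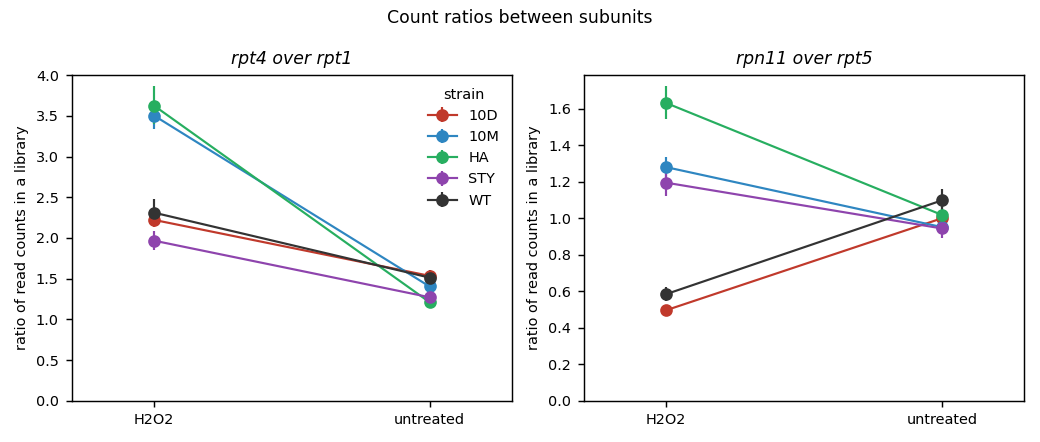
Ratio of read counts of 2 genes within each library (y axis, linear from 0), rpt4 over rpt1 on the left and rpn11 over rpt5 on the right, for H2O2 and untreated libraries of each strain (x axis); lines join the libraries of a strain and bars are 95% exact binomial intervals. For rpt4 over rpt1, the treated libraries of all 5 strains, from 1.97 to 3.63, lie above the untreated ones, from 1.21 to 1.54.

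Because transcripts of the same complex had different patterns, the DNA ahead of 4 of them is shown. These are rpt1, lower after H2O2 in all strains, rpt5, higher in 10D and WT, rpn11, lower in both, and rpt4. Coordinates are those of the reference annotation. Each line gives the 250 bases before the annotated transcript start in RefSeq assembly ASM294v3, 5′ to 3′ on the gene's strand. They are chrII:4343381-4343630 on the minus strand for rpt1, and on the plus strand chrI:3443681-3443930 for rpt5, chrIII:405351-405600 for rpt4 and chrI:3010396-3010645 for rpn11. Capitals mark TATAAA on either strand, with overlapping matches joined.
rpt1: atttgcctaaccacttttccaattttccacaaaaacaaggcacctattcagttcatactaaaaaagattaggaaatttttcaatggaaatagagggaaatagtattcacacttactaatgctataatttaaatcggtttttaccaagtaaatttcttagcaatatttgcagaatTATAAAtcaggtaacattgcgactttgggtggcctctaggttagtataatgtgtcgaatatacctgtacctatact
rpt5: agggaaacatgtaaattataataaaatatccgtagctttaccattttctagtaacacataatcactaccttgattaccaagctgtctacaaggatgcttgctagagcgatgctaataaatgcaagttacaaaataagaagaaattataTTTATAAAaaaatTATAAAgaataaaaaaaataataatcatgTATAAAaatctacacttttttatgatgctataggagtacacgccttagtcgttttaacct
rpt4: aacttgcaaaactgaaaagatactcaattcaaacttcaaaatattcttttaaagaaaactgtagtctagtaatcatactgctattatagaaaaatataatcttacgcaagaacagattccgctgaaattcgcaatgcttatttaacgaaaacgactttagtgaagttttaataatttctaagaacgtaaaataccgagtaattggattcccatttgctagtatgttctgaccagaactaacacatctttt
rpn11: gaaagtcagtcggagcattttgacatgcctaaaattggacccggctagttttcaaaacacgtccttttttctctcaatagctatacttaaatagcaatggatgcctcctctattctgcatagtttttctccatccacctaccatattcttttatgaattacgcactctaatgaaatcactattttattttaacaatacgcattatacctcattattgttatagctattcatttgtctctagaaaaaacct

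The TATAAA letters were found in the windows of rpt1, rpt2, rpt5, rpt6 and rpn2, 5 of the 9 genes, and in 44.4% of 5144 promoter windows of the same length. No window of the 9 genes held TGACGT, the core of the element that Atf1 and related bZIP factors bind, which was in 5.54% of all windows on either strand. None held the heat shock element letters GAANNTTC (9.62% of windows), the palindrome TTACGTAA searched for the bZIP factor Pap1 (0.467%), or GGTGGCAAA, the proteasome element of budding yeast promoters that Rpn4 binds (0.0778%). These are letter matches, and other forms of each element were not searched.

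Across strains, the test of 1 shared H2O2 response treated the strains as replicates (edgeR's quasi-likelihood test with strain and treatment as terms, Benjamini-Hochberg adjustment over 6097 genes, threshold 0.05). It called 0 of the 9 genes, with 4.9% of all genes called. At an unadjusted p under 0.05 it held 2 of the 9, rpt1 and rpt4, and 29.9% of all genes. For rpt1 the log2 change was -0.61 (SE 0.147, edgeR adjusted p = 0.0616), with the treated library lower in 5 of 5 strains. DESeq2's Wald test called 1 of the 9, rpt1, at -0.57 (adjusted p = 0.0127), and 18.7% of all genes.

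A second fit set 10D and WT each beside a pool of STY, HA and 10M, which stood in as replicates of each other. This fit held no strain term, so the treated and untreated libraries of a strain were not paired. Its error came from how STY, HA and 10M varied among themselves, with 4 residual degrees of freedom. As in the test of the shared response, edgeR drew each gene's error towards a trend over all genes. The lone 10D and WT libraries were assumed to vary as the pooled strains did. These pooled strains were not alike in the atf1 transcript. For STY it stood at 69.27 CPM untreated and fell to 30.37 CPM after H2O2. The HA libraries had far more, 555.6 CPM untreated and 660.1 CPM treated. Levels for 10M were 357.9 CPM before H2O2 and 398.1 CPM after it. In the pool, rpt4 rose after H2O2 by 0.47 on the log2 scale (SE 0.110, edgeR adjusted p = 0.0340), the 1 call among the 9 genes, where 5.18% of all genes were called higher and 10.3% lower. Values just past the threshold were those of rpt1 at -0.68 (adjusted p = 0.0618), rpt5 at -0.35 (0.0605) and rpn1 at -0.34 (0.0613), each lower in 3 of 3 strains. With strain as a block, 4 of the 9 were called, rpt4 higher and rpt1, rpt5 and rpn1 lower, in a fit that called 31.3% of all genes. On leaving out a strain the rpt4 change kept about its size and lost its call, at 0.43 without HA (adjusted p = 0.386), 0.50 without 10M (adjusted p = 0.0671) and 0.54 without STY (adjusted p = 0.0826). Without HA the fit called 0 of all 6213 genes. Without STY it called 2.23% of all genes and 1 of the 9, rpt1, at -0.91 (adjusted p = 0.0460). Under total counts rpt4 was at 0.35 (adjusted p = 0.101).

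Among treated cells, the ATPase genes rpt2, rpt3 and rpt6 and the lid gene rpn11 were lower in 10D than in the pool, and the ATPase gene rpt5 was higher. The edgeR log2 differences of treated 10D over the treated pool were -0.99 for rpn11 (SE 0.239, adjusted p = 0.0215), -0.87 for rpt6 (SE 0.219, adjusted p = 0.0248), -0.58 for rpt2 (SE 0.147, adjusted p = 0.0257) and -0.56 for rpt3 (SE 0.153, adjusted p = 0.0327). The rpt5 transcript was higher, by 0.47 (SE 0.143, edgeR adjusted p = 0.0440). These are 4 of 9 genes called lower and 1 of 9 higher, where 12.4% of all genes were called lower and 18.6% higher. In the levels above, treated 10D lay below each of the 3 treated pool libraries for the 4 lower genes and above each of them for rpt5. The scaffold genes rpn1 and rpn2 were not called, at 0.18 and 0.10. In untreated cells 0 of the 9 were called between 10D and the pool by edgeR or DESeq2. Over all genes edgeR called 2.67% and DESeq2 6.51%. At an unadjusted edgeR p under 0.05 stood 0 of the 9, where 14.6% of all genes did.

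Treated WT was lower than the treated pool for 5 genes. The edgeR log2 differences of WT over the pool were -0.87 for rpn11 (SE 0.238, adjusted p = 0.0280), -0.72 for rpt3 (SE 0.155, adjusted p = 0.0128), -0.72 for rpt2 (SE 0.148, adjusted p = 0.0105), -0.71 for rpt6 (SE 0.217, adjusted p = 0.0397) and -0.51 for rpt4 (SE 0.160, adjusted p = 0.0417). That is 5 of 9 genes called lower, where 16.4% of all genes were, and 0 of 9 called higher, where 21.5% were. Each of the 5 was lower in treated WT than in all 3 treated pool libraries. The rpt5 difference was 0.36 (edgeR adjusted p = 0.0864). Between untreated WT and the untreated pool, edgeR and DESeq2 each called 0 of the 9 genes. Over all genes edgeR called 0.0648% and DESeq2 1.07%. At an unadjusted edgeR p under 0.05 stood 0 of the 9, where 6.98% of all genes did. The untreated log2 differences were still below 0 for all 9 genes, from -0.46 for rpt6 to -0.05 for rpn11. Their median was -0.2, against 0 for all genes. The contrasts of 10D and of WT share the pool libraries, so they are not separate evidence for the genes that appear in both.

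**Figure D4:**
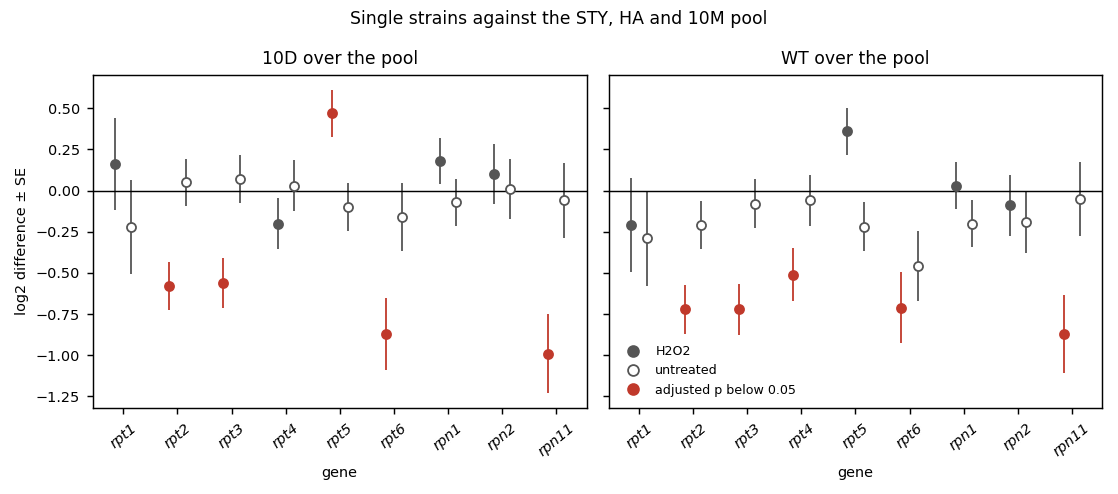
Log2 difference from the STY, HA and 10M pool, with SE from the edgeR fit (y axis), for each gene (x axis), 10D over the pool on the left and WT over the pool on the right; filled points are treated cells, open points untreated cells, and red marks an adjusted p below 0.05. Red points for rpt2, rpt3, rpt6 and rpn11 lie below 0 on both sides, rpt4 below 0 in WT and rpt5 above 0 in 10D, and no open point is red.

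The calls in treated cells depended on the library labelled HA. Without it, and so with 2 strains in the pool, 0 of the 9 genes were called in treated 10D against the pool and 0 in treated WT against the pool, with log2 differences close to those above (rpn11 at -0.85, adjusted p = 0.0792, and at -0.74, adjusted p = 0.0807). Over all genes, edgeR called 6.76% for treated 10D and 11.5% for treated WT without HA. Without STY, 1 of the 9 was called for 10D, rpn11, beside 20.3% of all genes, and 3 for WT, rpt2, rpt3 and rpn11, beside 26.5%.

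Whether the H2O2 response itself differed from that of the pool was tested as the difference of 2 responses. The edgeR test called 0 of the 9 genes for 10D, where 4.87% of all genes were called, and 0 for WT, where 5.44% were. DESeq2 also called 0 in both, beside 12% of all genes for 10D and 13.1% for WT. At an unadjusted p under 0.05 stood 5 genes for 10D (rpt2, rpt3, rpt5, rpt6 and rpn11), beside 25.0% of all genes, and 4 for WT (rpt2, rpt3, rpt5 and rpn11), beside 26.4%. The rpn11 difference of responses was -0.93 for 10D (SE 0.320, edgeR adjusted p = 0.138) and -0.82 for WT (SE 0.320, adjusted p = 0.163). With strain as a block, edgeR called rpt6 (-0.71, adjusted p = 0.0476) and rpn11 (-0.92, adjusted p = 0.0321) for 10D, beside 13.8% of all genes, and rpn11 (-0.81, adjusted p = 0.0394) for WT, beside 17.1% of all genes.

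Other proteasome genes, from lists of known subunits and partners, were read from the same fits. As given above, 12.4% of all genes were called lower and 18.6% higher in treated 10D, and 16.4% lower and 21.5% higher in treated WT. Of 13 other regulatory particle subunits, 4 were called lower in treated 10D than in the pool, led by the ubiquitin receptor gene rpn1302 (-0.94) and the lid genes rpn12 (-0.85) and rpn8 (-0.77), and 0 higher. In treated WT 6 of the 13 were called lower, led by rpn12 (-1.13), rpn9 (-1.11) and rpn1302 (-1.05), and 0 higher. Of 14 core particle subunits, 3 were lower in treated 10D, the beta subunit gene pts1 (-0.80), scl1 (-0.73) and pre1 (-0.71), and 1 was higher, pre9 (0.53). In treated WT 5 of the 14 were lower, led by pts1 (-0.79), pam1 (-0.72) and scl1 (-0.63). Of the 14, 3 were called without the low-count filter, beside 34.5% of all genes, and 3 with total counts, beside 34%. Without HA the called genes were 0 of 13 and 0 of 14 for 10D, beside 6.76% of all genes. For WT they were 2 of 13 and 0 of 14, beside 11.5%. On leaving out STY, 2 of the 13 and 1 of the 14 were called for 10D, beside 20.3% of all genes. For WT, 2 of the 14 were called without STY, beside 26.5%. In the pool's own H2O2 response, rpn1302 fell by 0.48 on the log2 scale (edgeR adjusted p = 0.0453), and 0 of the 14 core genes were called. That 1 call among the 13 was lost with DESeq2 size factors, with DESeq2's Wald test and on leaving out any one of 10M, HA or STY. The genes rpn501 and rpn502 are near-identical copies, so their counts are uncertain.

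**Figure D5:**
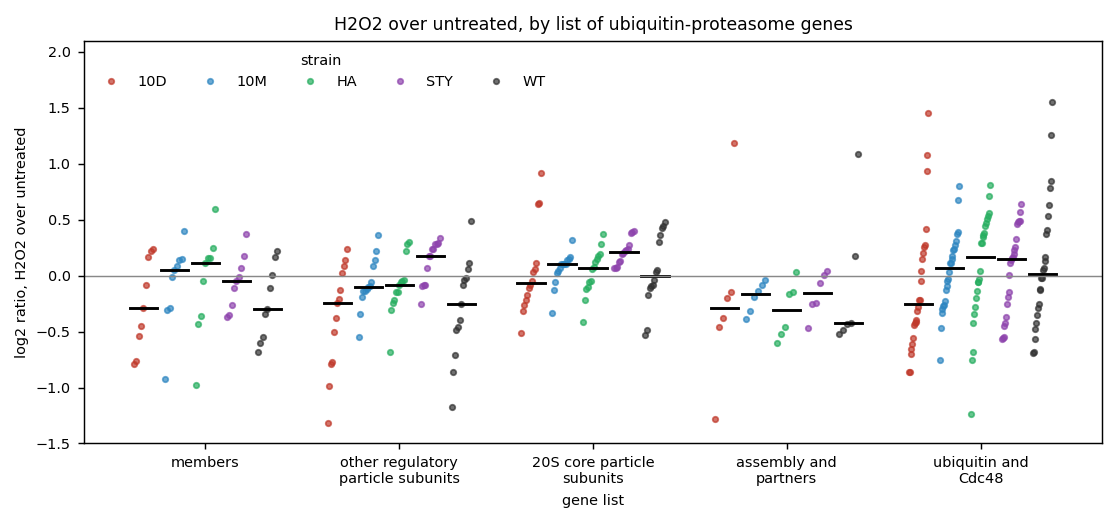
Log2 ratio of H2O2 over untreated TMM-scaled CPM (y axis) for single genes (points, coloured by strain) of the 9 regulatory particle genes, called members on the axis, and of 4 lists of related genes (x axis), with the median of each list and strain as a black line and 1 library per treatment. Medians of the other regulatory particle subunits were -0.24 in 10D, -0.10 in 10M, -0.08 in HA, 0.18 in STY and -0.25 in WT.

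Among genes outside the 9, those whose log2 level tracked the mean of the 9 most closely over the 10 libraries were ubp6, usp102 and SPAC30D11.14c (Pearson r = 0.97 each), then rrp6 and prp39 (0.96), and mrpl23, rrp43, mrps18, snd1 and aip1 (0.95). The ubp6 product is a deubiquitinase that binds the regulatory particle. Within the 9, rpt3 (0.93), rpt6 (0.90), rpt2 (0.88) and rpn11 (0.85) tracked the mean of which they are part, while rpt1 (0.52), rpn1 (0.35), rpt4 (0.15), rpn2 (-0.07) and rpt5 (-0.24) did so less or not at all. These correlations are descriptions over 10 libraries that share treatment and scaling.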

How the data were processed

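The deposited table holds raw read counts per gene for 10 polyA RNA-seq libraries. Per the submitters' processing notes, the authors used FastQC, TopHat2 2.1.1 and HTSeq; the build, annotation and strand setting are not given in the sources used here. Of 7017 gene identifiers, 6843 matched RefSeq ASM294v3, which supplied names, coding lengths and promoter windows. Counts were scaled with TMM factors. Within strains, log2 ratios used a prior count of 2, exact binomial 95% intervals and no test. Tests used edgeR 4.0.16 (R 4.3.3) quasi-likelihood fits after filterByExpr, with a threshold of 0.05 on p-values adjusted by Benjamini-Hochberg over all genes. SE was taken from the log2 change and its F statistic. Alternatives were other scalings, no filter, a smaller prior count, DESeq2 1.42.0, no strain term, a strain block and leaving out each strain; those for the other lists were added after the data were seen. All 9 subunit genes are named, and from other lists up to 3 called genes with the largest changes. The members and lists were chosen with earlier results of these data known. Strains rather than repeat cultures give the error, intervals cover counting error only, and PCR copies were not removed by molecular identifiers.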

Additional observations from a re-analysis of the deposited data

Results flagged for a closer look

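Opposite directions between strains drew attention to rpt2 and rpt5. The rpt2 transcript was lower after H2O2 in 10D (log2 ratio -0.45) and in WT (-0.34), whereas it was higher in 10M (0.15), HA (0.16) and STY (0.18), with every counting interval clear of 0. The rpt5 transcript was higher after H2O2 in 10D (0.22) and in WT (0.22), whereas it was lower in 10M (-0.29), HA (-0.43) and STY (-0.35). With counts scaled by library totals alone, rpt2 was at -0.49 in 10D and -0.51 in WT, and at 0.10 in 10M, 0.01 in HA and 0.03 in STY, and rpt5 was at 0.18 in 10D and 0.06 in WT. The edgeR test of the difference between each response and that of the pool did not pass the threshold for rpt2 in 10D (-0.62, adjusted p = 0.119) or WT (-0.51, adjusted p = 0.166), nor for rpt5 in 10D (0.58, adjusted p = 0.149) or WT (0.58, adjusted p = 0.141).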

How the results depend on the processing

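The labels give no replicate numbers. For the shared response, treated and untreated libraries were paired by strain as a term. The main pool fit did not pair them, and pairing them there, with strain as a block, was an alternative. For the shared response, total counts and DESeq2 each called 1 gene (9.18% and 18.7% of all genes), against 0. For the pool's response, total counts called 2 genes (14.8% of all), DESeq2 3 (22.1%) and the strain block 4 (31.3%), against 1 (15.5%). That 1 was rpt4, called higher. Total counts lost it and called rpt1 (-0.81, edgeR adjusted p = 0.0299) and rpt5 (-0.47, adjusted p = 0.03) lower instead. DESeq2 added rpt1 and rpn1, both lower. The strain block called 2 genes for the 10D response minus the pool's (13.8% of all) and 1 for the WT response minus the pool's (17.1%), against 0 in each. Leaving out single strains gave 0 to 1 calls for the pool's response (0% to 11.3% of all genes). Against the pool it gave 0 to 5 for treated 10D (6.76% to 39.2%) and 0 to 4 for treated WT (11.5% to 43.3%). The other comparisons had 0 calls (0% to 10.6% of all genes). With total counts the median log2 ratio of the 9 genes was -0.04 in HA, against 0.11, -0.20 in STY, against -0.05, and -0.47 in WT, against -0.30, and rpt3 in HA went to -0.04, against 0.11. The rpt5 call in treated 10D was lost with DESeq2 size factors (adjusted p = 0.0605) and total counts (0.0633), and the rpt4 call in treated WT with total counts (0.0776) and without 10M (0.0516) or STY (0.0570). Without the low-count filter, no test of the 9 genes changed side of the threshold. The causes were not tested. With 1 library per strain and treatment, spread between cultures is unknown.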

Other observations

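Genes that mark or steer proteins to the proteasome were called both higher and lower between strains in treated cells. Of 24 ubiquitin and Cdc48 genes, 6 were called higher and 5 lower by edgeR in treated 10D against the pool of STY, HA and 10M, among them the polyubiquitin gene ubi4 (1.43), ubc13 (-1.12) and ubc4 (-1.02), which encode ubiquitin-conjugating enzymes, beside 18.6% of all genes higher and 12.4% lower. In treated WT 7 were higher and 7 lower, led by ubi4 (1.46), the ubiquitin ligase gene hul5 (1.35) and ubx3 (-1.29), beside 21.5% of all genes higher and 16.4% lower. The test of the difference in H2O2 response from the pool called 1 of the 24 higher and 3 lower for 10D, and 1 higher and 1 lower for WT. Over all genes it called 4.87% for 10D and 5.44% for WT in either direction. Of 6 assembly factors and partners, ecm29 was higher in treated 10D (1.62) and in treated WT (1.16), and ubp6 was lower in treated WT (-0.66). Without the library labelled HA, 0 of the 24 were called for treated 10D and 5 for treated WT, and 1 of the 6 in each. That fit called 6.76% of all genes for 10D and 11.5% for WT. The ubiquitin genes share near-identical sequence, so ubi4 counts are uncertain.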
